A study of Mus musculus with 9 samples.

Results

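The genes described here are 5 ligands and 5 receptors of the tumor necrosis factor (TNF) family, taken by symbol from the 46517 genes of the expression table. The ligands were Tnf, Tnfsf9, Tnfsf10, Tnfsf13b and Tnfsf14, and the receptors were Tnfrsf1a, Tnfrsf1b, Tnfrsf10b, Tnfrsf23 and Fas. All 10 were in the table. They were chosen by name and role, not by a threshold on their values, but with earlier results of these data known. They were measured in neutrophils of OT mice, which are C57BL/6 mice that had received pancreatic ductal adenocarcinoma cells in the pancreas. The tumor cells came from KPC mice and stably expressed luciferase. Cells were sorted as live CD45+ Ly6G+ Ly6C+ cells, negative for the CD3, B220 and NK1.1 lineage markers, on day 27 after transplantation. The 3 compartments were bone marrow, where the labels call the cells Ly6G.hi, and blood and tumor, where they call them Ly6G+. Each compartment had 3 libraries, each from a pool of mice in an experiment of its own. Every library came from tumor-bearing mice, so tumor-free mice take no part in the comparisons. The paper describes the compartments as taken from the same mouse, while the labels give only a replicate number.

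TNF family ligands are mostly membrane proteins that act as trimers on neighbouring cells or, after they are shed, at a distance. Their receptors fall into those with a death domain, such as TNFR1, FAS and the TRAIL receptor, which can start apoptosis or necroptosis, and those that recruit TRAF adaptors and mainly activate NF-kB. Decoy receptors bind a ligand without passing on a death signal. Neutrophils are a source of TNF and BAFF, and FAS and TNFR1 are among the receptors that can shorten their lifespan.

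Between 4580807 and 7949367 reads were recovered from each library. All 10 neutrophil markers checked, Ly6g, S100a8, S100a9, Csf3r and Cxcr2 among them, had at least 5 reads in every library. Their summed level was 87670 to 95780 reads per 1000000 reads of scaled library size (RPM) in bone marrow, 38810 to 41010 in the blood and 11910 to 14480 in tumor. These markers did not all move alike. Ltf, the most read in bone marrow, had 233192 to 243442 reads there, 2624 to 2846 in the blood and 16196 to 26540 in tumor. Csf3r, the most read in the blood, had 13802 to 18048, 52750 to 72754 and 17234 to 22928. Markers of other cell types were read as well, although the sort took CD45+ cells and so leaves epithelial cells and fibroblasts outside the gate. The 10 epithelial markers summed to 2376 to 4547 RPM in tumor and the 8 fibroblast markers to 971 to 1115, and each of them had at least 5 reads in each tumor library. In bone marrow the same sums were 8.84 to 13.2 and 6.43 to 12.6. In blood they were 14.2 to 173 and 0.43 to 6.83, the highest epithelial sum being in replicate 2, where Krt8 had 406 reads. Reads of the 10 macrophage and monocyte markers summed to 462 to 508 RPM in bone marrow, 1502 to 1686 in the blood and 416 to 592 in tumor. For the 10 T and NK cell markers the sums were 25.1 to 34.2, 34.3 to 55.4 and 5.92 to 8.70. Ncr1 and Klrb1c had 0 reads in every tumor library, whereas Cd8a had 5, 14 and 17 and Il7r 20, 19 and 9. For the 5 B cell markers the sums were 19.97 to 47.6, 88.5 to 149 and 2.90 to 9.65, for the 5 platelet markers 8.13 to 13.3, 524 to 735 and 3.38 to 9.13, and for the 6 endothelial markers 11.8 to 19.6, 36.7 to 44.4 and 75.9 to 121. The 8 eosinophil and basophil markers summed to 93.7 to 129, 125 to 167 and 203 to 272. Genes of this list did not move together. Epx had 0 reads in every blood and tumor library. In tumor Siglecf had 1001, 1691 and 1115 reads and Il5ra 292, 300 and 459, beside 534 to 875 and 0 to 10 in the blood. In such bulk samples a smaller number of cells of a type and less RNA of its markers per cell cannot be told apart. The source of these reads and their part in the results below was not tested.

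Tumor neutrophils had more Tnf, Tnfsf9 and Tnfrsf23 RNA than neutrophils of both other compartments, and less Tnfsf13b and Tnfrsf1a. Tnfsf14 and Fas were highest in the blood, and Tnfrsf1b was low in bone marrow and high in the blood and tumor. Per the paper, tumors were digested with collagenase and DNase, whereas blood had red cell lysis. Tissue handling and compartment therefore cannot be told apart, and the part of handling in these values was not tested. Each contrast was tested with limma on log2 FPKM, in a fit over all 7794 genes whose log2 FPKM was over 0 in at least 3 libraries, and called at a Benjamini-Hochberg adjusted p under 0.05. FPKM are fragments scaled to gene length and library size. This filter kept 8 of the 10 genes. Tnfsf10 and Tnfrsf10b were left out by it and are described by their reads, and none of the 8 that passed was above 0 in only 1 compartment. Against blood, 3 of the 8 were higher in tumor and 5 lower, where 28.1% and 34.5% of all genes tested were called higher and lower. Against bone marrow, 4 were higher and 2 lower, beside 22.4% and 32.9% of all genes. Between blood and bone marrow 6 were higher in the blood and 2 lower, beside 20.6% and 23.6%. Tnf, Tnfsf9 and Tnfrsf23 were higher in tumor than in both compartments, as were 16.5% of all genes, and Tnfsf13b and Tnfrsf1a lower than in both, as were 23.7%. The tumor libraries serve in both tumor contrasts, so these are not independent of each other. When plain totals of reads replaced the scaled library sizes, the median log2 fold change of all genes moved from -0.17 to 0.24 against blood and from -0.21 to 0.21 against bone marrow. The share of all calls that were higher in tumor then moved from 45.0% to 60.1% and from 40.5% to 60.9%.

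**Figure D1:**
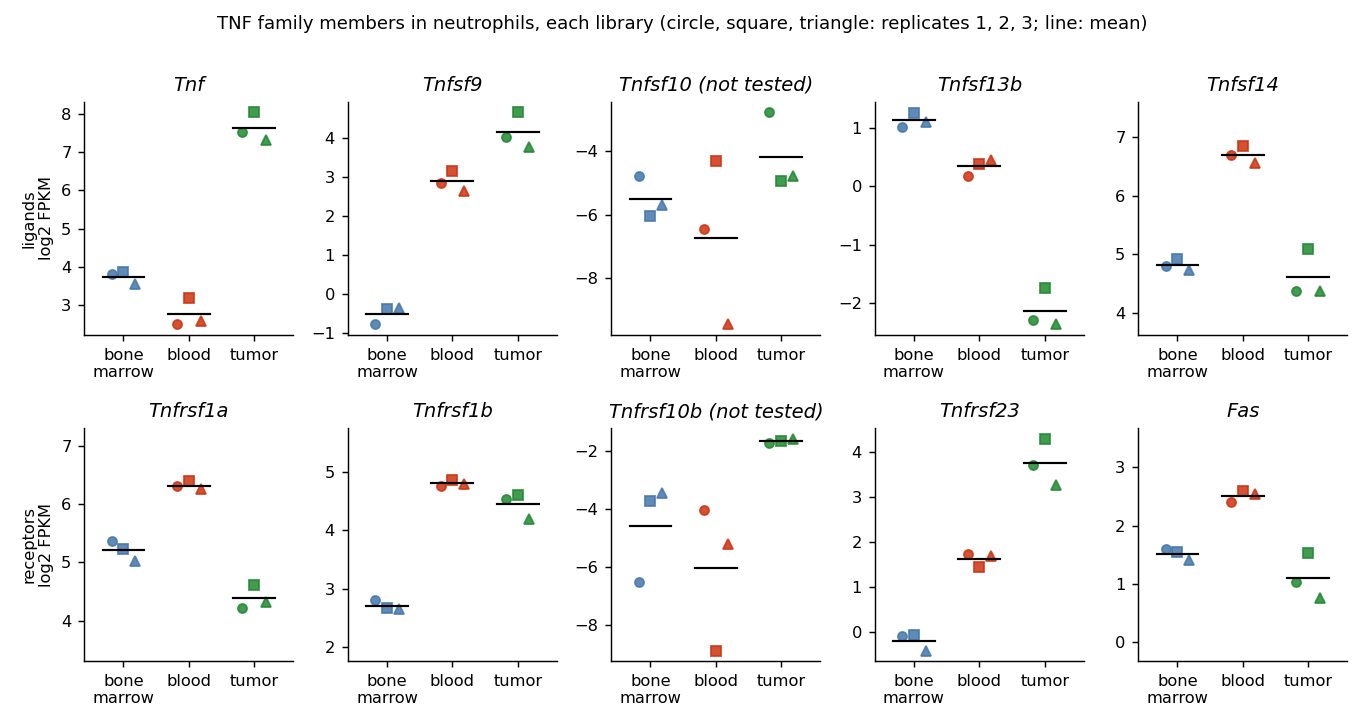
Log2 FPKM (y axis, with a scale of its own in each panel) of the 5 ligands (top) and 5 receptors (bottom) in bone marrow, blood and tumor neutrophils (x axis). Each point is 1 library and the black line is the mean of 3, and the tumor points of Tnf, Tnfsf9 and Tnfrsf23 lie above all others while those of Tnfsf13b and Tnfrsf1a lie below.

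**Figure D2:**
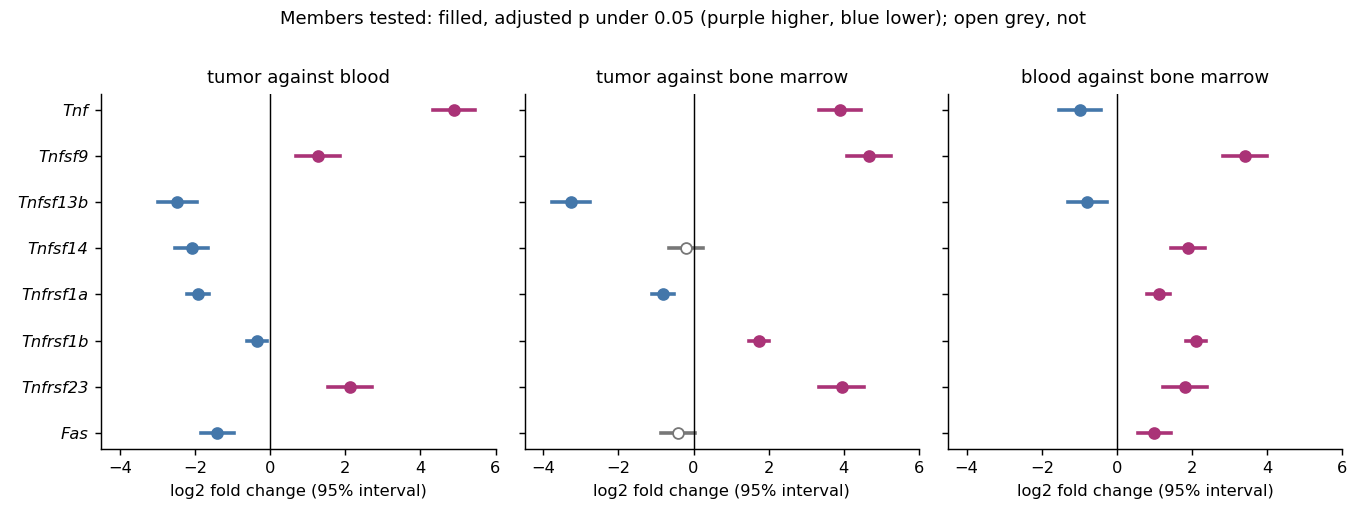
Log2 fold change (x axis) of the 8 genes tested (y axis) in each of the 3 contrasts, with the 95% confidence interval of the limma fit as a bar. Filled points passed an adjusted p under 0.05 and open points did not; Tnf against blood reached 4.89 and Tnfsf13b against bone marrow -3.26, and the intervals of Tnfsf14 and Fas against bone marrow cover 0.

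Tnf encodes TNF itself, the founding cytokine of the family. It had 245, 215 and 204 reads in the 3 bone marrow libraries, 58, 133 and 73 in the blood, and 3041, 5276 and 3315 in tumor. Its log2 FPKM was 3.80, 3.86 and 3.55 in bone marrow, 2.49, 3.18 and 2.57 in the blood, and 7.54, 8.05 and 7.31 in tumor. The compartments did not overlap, and the lowest tumor library lay far above the highest of the others. Tnf was 29.6-fold higher in tumor than in blood (log2 fold change 4.89, SE 0.24, limma adjusted p = 3.9e-06) and 14.9-fold higher than in bone marrow (log2 fold change 3.90, SE 0.24, adjusted p = 9.2e-06). Blood was 1.99-fold lower than bone marrow (log2 fold change -0.99, SE 0.24, adjusted p = 0.0118), a call that limma-voom on recovered reads did not make (adjusted p = 0.0547). Within tumor, Tnf was highest in replicate 2 and lowest in replicate 3, as were Tnfsf9 and Tnfrsf23. Tnfsf14 and Tnfrsf1a were highest in replicate 2 and lowest in replicate 1. Tnfsf13b, Tnfrsf1b and Fas had the order of Tnf, which was thus not particular to genes highest in tumor. The macrophage and monocyte sums had the same order, at 592, 534 and 416 RPM in replicates 2, 1 and 3, and so had the eosinophil and basophil sums (272, 212 and 203) and the endothelial sums (121, 90.6 and 75.9), whereas the epithelial sums had the opposite order (2376, 2959 and 4547). In replicates 1, 2 and 3 the neutrophil sums were 14480, 12230 and 11910 and the fibroblast sums 971, 1070 and 1115, which are other orders. The T and NK cell, B cell and platelet sums also had other orders. The factors that scale library size were 1.09, 1.14 and 1.22 in replicates 2, 1 and 3, and a larger factor lowers the values of a library. The order of 3 libraries is a description, and the part of these markers and factors was not tested. Among blood libraries replicate 2, which had the most epithelial reads, had the highest Tnf. Without it, the log2 fold change of tumor against blood was 5.11 (adjusted p = 2.3e-05).

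Tnf lies on chromosome 17 of GRCm38, from 35199381 to 35202007 on the minus strand. The 250 bases before its start, chr17:35202008-35202257 in the RefSeq promoter table of GRCm38.p6, are printed because Tnf changed most against blood of the 8 genes tested. They are read 5′ to 3′ toward the start, and the capitals mark the TATA element TATAAA from position -29 to -24, counted from the first transcribed base as 0. That element was found, on either strand, in 13.6% of the 32851 promoter windows of the table, each of 250 bases before and 50 after a start.
Tnf: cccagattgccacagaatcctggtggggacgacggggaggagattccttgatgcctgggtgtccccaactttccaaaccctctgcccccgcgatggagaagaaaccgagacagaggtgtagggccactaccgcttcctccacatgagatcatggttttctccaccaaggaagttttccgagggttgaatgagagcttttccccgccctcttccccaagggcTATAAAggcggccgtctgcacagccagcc

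Tnfsf9 encodes 4-1BBL, the ligand of the costimulatory receptor 4-1BB. It had 9, 10 and 12 reads in bone marrow, 68, 119 and 70 in the blood, and 241, 456 and 257 in tumor. Its log2 FPKM was -0.78, -0.40 and -0.36 in bone marrow, 2.86, 3.17 and 2.66 in the blood, and 4.03, 4.67 and 3.77 in tumor. The compartments formed 3 steps with no overlap. Tnfsf9 was 2.40-fold higher in tumor than in blood (log2 fold change 1.26, SE 0.25, limma adjusted p = 0.00285) and 25.5-fold higher than in bone marrow (4.67, SE 0.25, adjusted p = 5.2e-06, and 3.47 with a pseudocount of 1). In contrast to Tnf, it was already higher in blood than in bone marrow, by 10.6-fold (adjusted p = 5.0e-05). The gene shares 192 exonic bases with Gm11110 on the opposite strand, which had 1 to 20 reads, and the sources used here do not say whether strand was used in counting. The 4-1BB gene itself, Tnfrsf9, which was singled out after its values were seen, had 0 reads in all bone marrow libraries, 11, 6 and 8 in the blood, and 72, 118 and 69 in tumor.

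Tnfsf14 encodes LIGHT, which binds HVEM and the lymphotoxin beta receptor. Its log2 FPKM was 4.79, 4.92 and 4.73 in bone marrow, 6.70, 6.86 and 6.56 in the blood, and 4.37, 5.08 and 4.37 in tumor, from 603 to 3045 reads. All blood libraries stood above the rest, whereas tumor replicate 2 lay above bone marrow and the other tumor libraries below it. Tnfsf14 was 4.27-fold lower in tumor than in blood (log2 fold change -2.09, SE 0.19, limma adjusted p = 5.5e-05) and 3.71-fold higher in blood than in bone marrow (1.89, SE 0.19, adjusted p = 0.000225). Tumor against bone marrow did not pass (-0.20, 95% interval -0.65 to 0.25, adjusted p = 0.413). Without tumor replicate 2 it was called lower (-0.44, adjusted p = 0.0155), and with plain library totals its sign turned (0.25, adjusted p = 0.229). Its receptor genes were lower in tumor than in blood, Tnfrsf14, encoding HVEM, by 5.97-fold (log2 fold change -2.58) on only 3 to 22 reads in tumor, and Ltbr by 2.85-fold (-1.51, adjusted p = 0.0021).

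Tnfsf13b encodes BAFF, a survival factor for B cells. It had 388, 387 and 407 reads in bone marrow, 128, 208 and 183 in the blood, and 36, 64 and 44 in tumor. Its log2 FPKM was 1.02, 1.26 and 1.10 in bone marrow, 0.18, 0.38 and 0.45 in the blood, and -2.29, -1.75 and -2.36 in tumor. This was a stepwise order opposite to that of Tnfsf9, again with no overlap. BAFF RNA was 5.55-fold lower in tumor than in blood (log2 fold change -2.47, SE 0.22, limma adjusted p = 4.7e-05) and 9.59-fold lower than in bone marrow (-3.26, SE 0.22, adjusted p = 1.5e-05). These sizes depend on the scale at such low levels, and with a pseudocount of 1 they were -0.88 and -1.37 on the log2 scale, both still called. Blood was 1.73-fold lower than bone marrow (-0.79, adjusted p = 0.0224), a call that was lost without any 1 of the bone marrow libraries or without blood replicate 1 or 2 (adjusted p = 0.0520 to 0.0787). Of the BAFF receptor genes, Tnfrsf13b, encoding TACI, was higher in tumor, 3.19-fold relative to blood and 2.52-fold relative to bone marrow (limma adjusted p = 0.00173 and 0.0065). Tnfrsf13c, encoding the BAFF receptor, was lower than in blood (log2 fold change -2.30) on 4 to 6 reads in tumor.

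Tnfsf10, the gene of the death ligand TRAIL, was near the limit of detection. It had 6, 2 and 3 reads in bone marrow, 1, 7 and 0 in the blood, and 23, 6 and 7 in tumor, so a single tumor library held most of its tumor reads. In a fit over the 17714 genes with at least 5 reads in a library, no contrast passed (tumor against blood 2.57 on the log2 scale, 95% interval -0.31 to 5.46, limma adjusted p = 0.117). At this depth no difference between compartments was detectable for it.

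The receptors of TNF moved apart. Tnfrsf1a encodes TNFR1, which carries a death domain, and Tnfrsf1b encodes TNFR2, which has none. Tnfrsf1a had log2 FPKM of 5.37, 5.23 and 5.02 in bone marrow, 6.31, 6.39 and 6.25 in the blood, and 4.22, 4.61 and 4.33 in tumor, from 1516 to 6131 reads. All tumor libraries lay below all others. It was 3.81-fold lower in tumor than in blood (log2 fold change -1.93, SE 0.13, limma adjusted p = 1.2e-05) and 1.76-fold lower than in bone marrow (-0.82, SE 0.13, adjusted p = 0.000988), and 2.16-fold higher in blood than in bone marrow (adjusted p = 0.000381). Tnfrsf1b had log2 FPKM of 2.80, 2.67 and 2.65 in bone marrow, 4.76, 4.86 and 4.79 in the blood, and 4.54, 4.61 and 4.20 in tumor, from 1205 to 6187 reads. The blood and tumor libraries lay close together and well above bone marrow. Tnfrsf1b was 3.35-fold higher in tumor than in bone marrow (log2 fold change 1.74, SE 0.12, adjusted p = 1.3e-05) and 4.28-fold higher in blood than in bone marrow (2.10, SE 0.12, adjusted p = 2.0e-05). Against blood it was 1.28-fold lower in tumor (-0.35, SE 0.12, adjusted p = 0.0279). That call was lost without any 1 of the blood libraries or without tumor replicate 3 (adjusted p = 0.0515 to 0.0815), and its sign turned with plain library totals (0.09, adjusted p = 0.397).

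The ratio of both TNF receptor genes within a library does not depend on the scaling between libraries. Per kilobase of exon, Tnfrsf1b was read 0.292, 0.293 and 0.334 times as often as Tnfrsf1a in the bone marrow libraries, 0.592, 0.600 and 0.628 times in the blood, and 2.16, 1.73 and 1.58 times in tumor. The compartments did not overlap in this ratio. On this scale TNFR1 RNA was thus the more abundant in every bone marrow and blood library, and TNFR2 RNA in every tumor library. In tumor, which of them leads depends on the gene length used. By log2 FPKM, computed on the genomic span, Tnfrsf1b had 4.54, 4.61 and 4.20 in tumor and Tnfrsf1a 4.22, 4.61 and 4.33. They were level in replicate 2, and Tnfrsf1a led in replicate 3. The order of the compartments in the ratio does not depend on the length. No test was run on the ratio.

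Tnfrsf23 encodes a mouse decoy receptor for TRAIL, which binds the ligand but has no death domain. It had 126, 109 and 100 reads in bone marrow, 265, 306 and 305 in the blood, and 1638, 2985 and 1526 in tumor. Its log2 FPKM was -0.09, -0.06 and -0.41 in bone marrow, 1.74, 1.45 and 1.70 in the blood, and 3.72, 4.30 and 3.26 in tumor. The order was the same as for Tnfsf9, with no overlap between compartments. Tnfrsf23 was 4.37-fold higher in tumor than in blood (log2 fold change 2.13, SE 0.26, limma adjusted p = 0.000203), 15.4-fold higher than in bone marrow (3.94, SE 0.26, adjusted p = 1.1e-05, and 2.95 with a pseudocount of 1), and 3.52-fold higher in blood than in bone marrow (adjusted p = 0.000984).

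Tnfrsf10b encodes the mouse TRAIL death receptor. It had 1, 7 and 10 reads in bone marrow, 4, 0 and 2 in the blood, and 32, 40 and 45 in tumor. Every tumor library had more reads than any other, yet the level stayed low, at 0.985 ± 0.0484 RPM per kilobase of exon (SD, n = 3) in tumor. Tnfrsf10b was highest in tumor, as were the epithelial and fibroblast marker sums, whose part in its value was not tested. In the fit over 17714 genes it was higher in tumor than in blood (log2 fold change 4.38, SE 1.28, limma adjusted p = 0.0195), as were 32.4% of the genes, and did not pass against bone marrow (2.92, 95% interval -0.01 to 5.85, adjusted p = 0.0961), where 25.2% were called higher. Limma-voom on the recovered reads called it higher in both (log2 fold changes 3.90 and 2.83, adjusted p = 0.00133 and 0.00557), as it did 33.1% and 29.3% of the genes.

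Fas encodes the death receptor FAS. Its log2 FPKM was 1.59, 1.55 and 1.42 in bone marrow, 2.41, 2.59 and 2.54 in the blood, and 1.03, 1.52 and 0.76 in tumor, from 470 to 1247 reads. Blood stood above the rest, and tumor replicate 2 lay within the range of bone marrow. Fas was 2.65-fold lower in tumor than in blood (log2 fold change -1.41, SE 0.19, limma adjusted p = 0.000383) and 1.99-fold higher in blood than in bone marrow (0.99, SE 0.19, adjusted p = 0.0042). Tumor against bone marrow did not pass (-0.42, 95% interval -0.86 to 0.03, adjusted p = 0.1001). Without tumor replicate 2 it was called lower (-0.62, adjusted p = 0.00801), and with plain library totals the sign turned (0.04, adjusted p = 0.871). Its ligand gene Fasl, singled out after its values were seen, had 0 to 2 reads in bone marrow, 5 to 11 in the blood and 0, 7 and 0 in tumor.

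RefSeq promoter windows on GRCm38.p6 were found for 8 of the 10 genes. They were searched on both strands for the NF-kB consensus, the AP-1 site TGANTCA, the TATA element TATAAA and the HIF core, which is ACGTG or else GCGTG. The NF-kB consensus matched in none of the 8 genes' windows, and in 8.46% of all windows. The AP-1 site was found in the windows of Tnfsf14, Fas and Tnfsf13b, and in 7.81% of all windows. These 3 genes were lower in tumor than in the blood, but so were Tnfrsf1a and Tnfrsf1b, whose windows hold no AP-1 match. Since TGANTCA reads the same on both strands, each match was counted once. The HIF core was found for Tnfsf14, Tnfrsf1b, Tnfrsf23 and Fas, but it is short and was in 43.8% of all windows. Printed below, 5′ to 3′, are the 250 bases before the start of Tnfsf14 (chr17:57194182-57194431, minus strand) and Fas (chr19:34290409-34290658, plus strand), which both hold an AP-1 match and a HIF core match, and of Tnfrsf23 (chr7:143685876-143686125, minus strand), which holds a TATA element and a HIF core match. Capitals mark the matches, among them the AP-1 match from -160 to -154 in Tnfsf14 and from -211 to -205 in Fas. The run of capitals from -110 to -105 in Fas is a pair of HIF core matches that overlap on opposite strands, and the first capitals in Tnfrsf23, from -158 to -153, are TATAAA on the other strand. These matches describe letters in a window and no binding was measured.
Tnfsf14: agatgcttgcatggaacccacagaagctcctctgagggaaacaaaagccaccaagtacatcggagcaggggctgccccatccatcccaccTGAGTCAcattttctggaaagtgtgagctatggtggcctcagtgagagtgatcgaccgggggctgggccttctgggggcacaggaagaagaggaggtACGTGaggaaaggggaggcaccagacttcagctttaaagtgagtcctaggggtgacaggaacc
Fas: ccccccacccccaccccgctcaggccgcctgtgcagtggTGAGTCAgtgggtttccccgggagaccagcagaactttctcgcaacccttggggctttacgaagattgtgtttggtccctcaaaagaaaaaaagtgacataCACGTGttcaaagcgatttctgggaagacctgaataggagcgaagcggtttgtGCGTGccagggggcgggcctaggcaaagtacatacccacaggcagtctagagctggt
Tnfrsf23: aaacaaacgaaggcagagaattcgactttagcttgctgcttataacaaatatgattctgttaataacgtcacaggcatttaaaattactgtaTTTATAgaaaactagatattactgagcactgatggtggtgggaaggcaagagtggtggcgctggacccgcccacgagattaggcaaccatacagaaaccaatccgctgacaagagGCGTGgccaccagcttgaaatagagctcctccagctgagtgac

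To compare genes with each other, reads were divided by exonic length and scaled library size, because FPKM were mostly computed on the whole genomic span of a gene. On this scale, in RPM per kilobase of exon, Tnfrsf1a led in bone marrow (188 ± 22.3, SD, n = 3), followed by Tnfsf14 (71.5 ± 4.85), Tnfrsf1b (57.3 ± 3.35) and Fas (51.6 ± 3.27), and none of these neighbours overlapped. In blood Tnfrsf1a led again (404 ± 19.1), and Tnfsf14 (266 ± 28.0) and Tnfrsf1b (245 ± 8.61) overlapped, ahead of Fas (103 ± 6.59). In tumor Tnf led (326 ± 88.8), ahead of Tnfrsf1b (193 ± 28.1) and Tnfrsf1a (107 ± 15.5). Tnfrsf1a and Tnfrsf23 (71.6 ± 25.9) overlapped in tumor, as did Tnfrsf23 and Tnfsf14 (63.9 ± 19.4), Fas (39.6 ± 10.9) and Tnfsf9 (34.0 ± 11.3), and Tnfrsf10b and Tnfsf13b (0.961 ± 0.236). Tnf ranked 5 of the 10 in bone marrow (21.4 ± 2.36) and 7 in blood (11.0 ± 3.07), where it overlapped with Tnfsf9 (13.8 ± 2.51).

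The same levels can be read as shares. Of the summed level of the 5 ligand genes, Tnfsf14 made up 69.2% ± 0.557 in bone marrow and 89.9% ± 0.887 in blood, but 15.0% ± 1.10 in tumor (SD, n = 3). Tnf made up 20.7% ± 1.21, 3.67% ± 0.658 and 76.8% ± 1.07. The leading ligand RNA was therefore that of LIGHT in bone marrow and blood and that of TNF in tumor, in every library. Of the 5 receptor genes, Tnfrsf1a made up 62.2% ± 1.48, 52.6% ± 0.996 and 26.1% ± 3.19, given like the others as a description with no test. Tnfrsf1b made up 19.1% ± 1.02, 31.9% ± 0.380 and 47.1% ± 3.45, Tnfrsf23 1.48% ± 0.106, 2.06% ± 0.287 and 17.01% ± 3.10, and Fas 17.2% ± 0.599, 13.4% ± 0.638 and 9.52% ± 0.894.

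**Figure D3:**
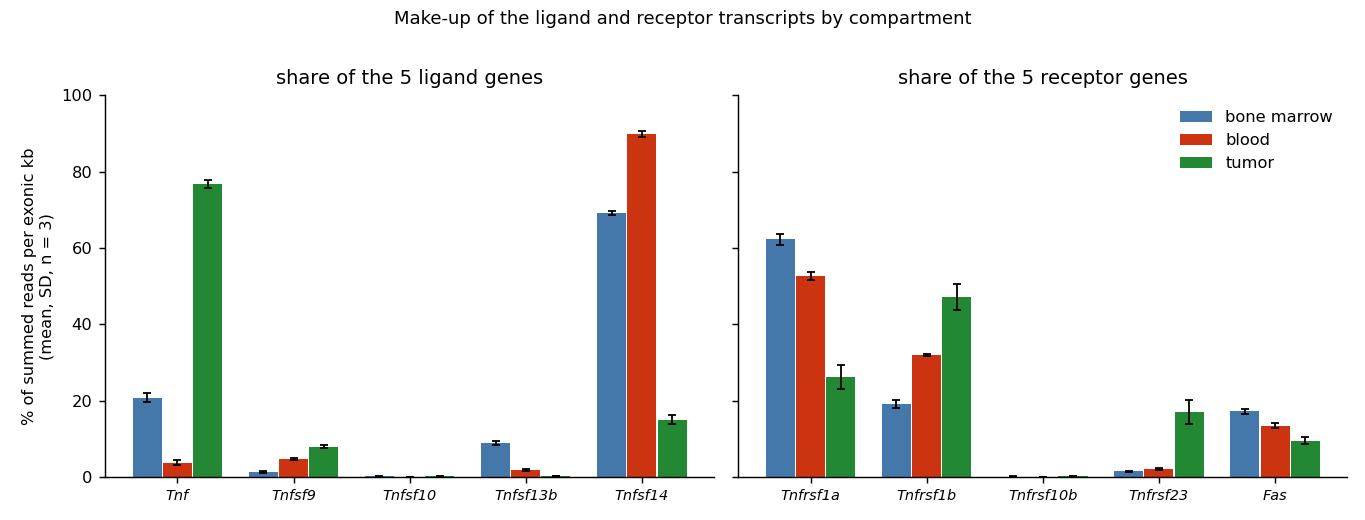
Share of each gene (x axis) in the summed reads per exonic kilobase of the 5 ligand genes (left) and 5 receptor genes (right), in percent (y axis). Bars are means of 3 libraries with SD, coloured by compartment; Tnfsf14 makes up 89.9% of the ligand level in the blood and Tnf 76.8% in tumor.

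Several of the genes lie beside others of the family. On chromosome 17, Tnf is 3.06 kb from Ltb and 1.16 kb from Lta, which encode the lymphotoxins. Ltb had 539, 603 and 495 reads in bone marrow, 794, 1389 and 927 in the blood, and 234, 306 and 216 in tumor. It moved against Tnf, by -2.63 on the log2 scale against blood and -1.31 against bone marrow (SE 0.19, limma adjusted p = 1.8e-05 and 0.000751). Lta had at most 11 reads in a library. The level of Tnf per exonic kilobase was 0.377 ± 0.0455 times that of Ltb in bone marrow, 0.0763 ± 0.0109 times in the blood and 14.1 ± 1.97 times in tumor. Farther along chromosome 17, Tnfsf9 and Tnfsf14 lie 81.73 kb apart with Cd70 between them, which had 0 reads in all 9 libraries. Tnfsf9 rose from blood to tumor while Tnfsf14 fell.

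On chromosome 7, Tnfrsf23 is the last of a row with Tnfrsf26 and Tnfrsf22, 16.15 kb from Tnfrsf22. These are close paralogs, and the sources used here do not say how reads that fit more than 1 of them were counted, so their separate values are uncertain. Tnfrsf26 had 367, 321 and 369 reads in bone marrow, 291, 615 and 445 in the blood, and 4897, 7731 and 4490 in tumor. It was 8.40-fold higher in tumor than in blood (log2 fold change 3.07, SE 0.23, limma adjusted p = 1.8e-05) and 13.8-fold higher than in bone marrow (3.79, SE 0.23, adjusted p = 8.2e-06). Tnfrsf22, also a TRAIL decoy receptor, had 10 to 15 reads in bone marrow, 21 to 42 in the blood and 84 to 255 in tumor and did not pass the filter. All 3 genes of the row were thus read most in tumor.

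**Figure D4:**
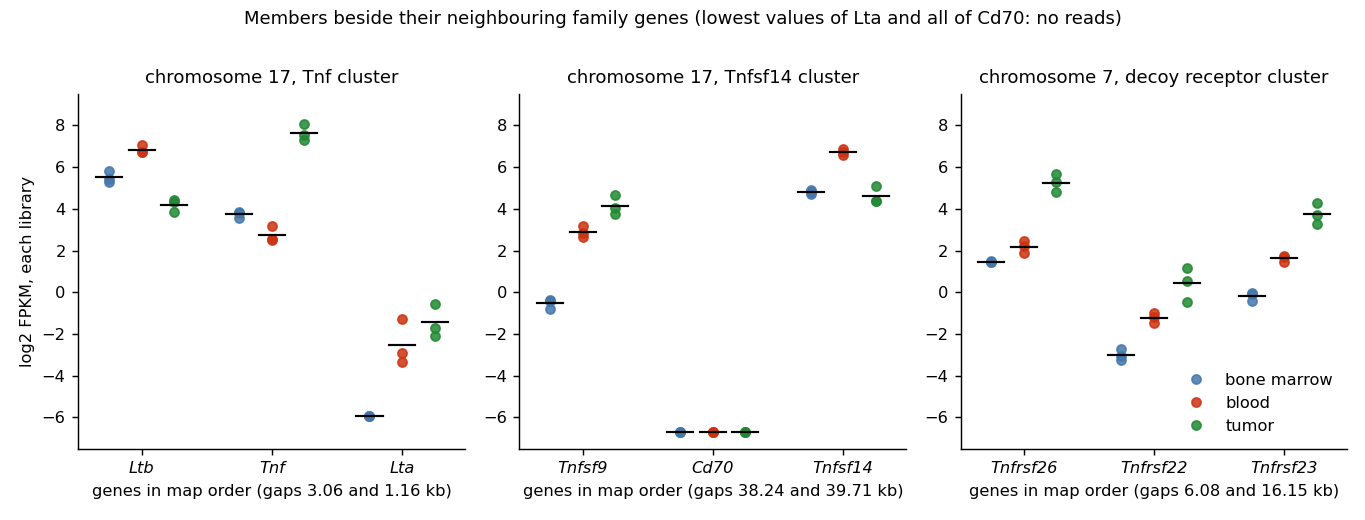
Log2 FPKM (y axis) of the neighbouring family genes in map order (x axis) in the Tnf, the Tnfsf9 to Tnfsf14 and the Tnfrsf23 stretches. Each point is 1 library, coloured by compartment, and the line is the mean of 3; Tnf and Ltb move in opposite directions in tumor, Cd70 has 0 reads throughout, and the 3 genes on chromosome 7 are highest in tumor.

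Of 13 other ligand genes of the family, Ltb was the 1 that passed the filter. Of 23 other receptor genes 9 were tested, of which 3 were higher and 5 lower in tumor than in the blood, and 4 were higher and 3 lower than in bone marrow, with median log2 fold changes of -0.51 and -0.72 beside -0.17 and -0.21 for all genes. The shares of all genes were 28.1% and 34.5% against blood and 22.4% and 32.9% against bone marrow. Tnfrsf12a would not have met the filter without tumor, nor Tnfrsf13c and Tnfrsf14 without bone marrow or without blood, so these counts are a description. Tnfrsf12a, the receptor of TWEAK, had 12 to 13 reads in bone marrow, 6 to 8 in the blood and 234 to 356 in tumor (log2 fold changes 4.86 and 4.36 against blood and bone marrow). Relt was lower in both (-2.13 and -0.72, limma adjusted p = 7.9e-06 and 0.00204). Tnfrsf12a was highest in tumor, as were the epithelial and fibroblast marker sums, whose part in its value was not tested. Within tumor its log2 FPKM was 4.84, 3.95 and 4.37 in replicates 1, 2 and 3, an order that neither sum had.

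Of 7 tested death signalling genes downstream of the receptors, 3 were called higher and 1 lower in tumor than in the blood, and 3 were not called, beside 28.1% higher and 34.5% lower of all genes. Against bone marrow 1 was called higher and 1 lower, and 5 were not called, beside 22.4% and 32.9% (medians 0.12 and -0.06). Casp8 would not have met the filter without tumor, nor Fadd without bone marrow or without tumor, so these counts are a description. Casp8, the initiator caspase of death receptors, was higher in tumor, by 2.26-fold against blood and 2.08-fold against bone marrow. Bid, which links caspase-8 to mitochondria, was lower, by 4.92-fold and 2.80-fold (limma adjusted p = 2.9e-06 and 1.7e-05). Fadd, the adaptor of death receptors, and Ripk3, a kinase of necroptosis, were higher than in blood (1.17 and 1.03, the latter with adjusted p = 0.00211) and did not pass against bone marrow (-0.72 and 0.13).

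Among 12 tested adaptors, cIAPs, kinases and ubiquitin ligases, 2 were higher and 7 lower than in the blood, and 3 higher and 4 lower than in bone marrow (medians -0.60 and -0.23), beside 28.1% and 34.5% and then 22.4% and 32.9% of all genes. The shares against bone marrow lie close to those of all genes. Traf1 and Tab1, the 2 genes called higher than in the blood, met the filter only through tumor. The counts of this list are therefore a description. Traf1, an adaptor of TNFR2 and 4-1BB, had 13 to 33 reads in bone marrow, 9 to 40 in the blood and 340 to 465 in tumor (log2 fold changes 3.59 and 4.26). Tab1, a partner of the kinase TAK1, was also higher (1.48 and 0.94). Rnf31 and Sharpin, both parts of the linear ubiquitin ligase, were lower than in blood (-1.87 and -0.82, limma adjusted p = 7.3e-05 and 0.000862). Their calls against bone marrow (-0.81 and -0.53) were lost with plain library totals. Tank was lower against bone marrow (-1.18), the only compartment where its log2 FPKM was over 0, and close to blood (-0.01). Traf6 passed as higher against bone marrow (1.16, limma adjusted p = 0.016) and not against blood (0.81, adjusted p = 0.0575). Whether the contrasts differ was not tested.

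Among the feedback regulators of TNF receptor signalling, Tnfaip3 and Nfkbia were higher in tumor against blood as well as bone marrow. Tnfaip3, encoding the ubiquitin-editing enzyme A20, had 178, 181 and 249 reads in bone marrow, 69, 234 and 198 in the blood, and 6333, 14461 and 8374 in tumor. It was 40.5-fold higher than in the blood and 40.0-fold higher than in bone marrow (log2 fold changes 5.34 and 5.32, SE 0.39, limma adjusted p = 1.7e-05 and 2.0e-05). Nfkbia, encoding the NF-kB inhibitor IkBα, was 4.84-fold and 7.64-fold higher (adjusted p = 3.1e-05 and 1.1e-05). Tnfaip8l2 and Tnfaip8 were lower in both, with log2 fold changes of -3.75 and -3.13 for the first and -1.15 and -1.69 for the second. Tnfaip2 and Tnip2 were higher than in bone marrow (1.53 and 1.40) and lower than in blood (-0.47 and -0.99), and the call of Tnfaip2 against blood was lost with plain library totals. Of 8 tested genes of this list, 2 were higher and 5 lower than in the blood (median -0.64), beside 28.1% and 34.5% of all genes. The list also holds genes named as TNF-induced, such as Tnfaip2 and Tnfaip8, whose role in feedback was not tested. Against bone marrow 4 were higher and 3 lower (median 0.85), beside 22.4% and 32.9%.

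Of 6 genes of the shedding of TNF and its receptors, 4 were tested. Adam17, encoding the TNF converting enzyme, had 522 to 982 reads per library and did not pass in any contrast. Rhbdf2, which encodes the partner iRhom2 that ADAM17 needs, was lower in tumor (-1.60 and -1.23, limma adjusted p = 4.0e-05 and 0.000186). Timp3, an inhibitor of ADAM17, had 2 to 8 reads in bone marrow, 2 to 3 in the blood and 381 to 409 in tumor (log2 fold changes 6.54 and 6.49), and Rhbdf1, singled out after its values were seen, had 0, 0 to 3 and 67 to 168 reads. Both were highest in tumor, as were the epithelial and fibroblast marker sums, and the part of those markers in these values was not tested. Of the pathway genes named here, Timp3, Traf1, Tab1, Casp8, Tnfrsf12a, Fadd, Tank, Tnfrsf13c and Tnfrsf14 would have been over 0 in fewer than 3 libraries with a single compartment left out, for the first 5 the tumor. They passed the filter through compartments where they were high, so their values and the counts above are given as descriptions, with no p.

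**Figure D5:**
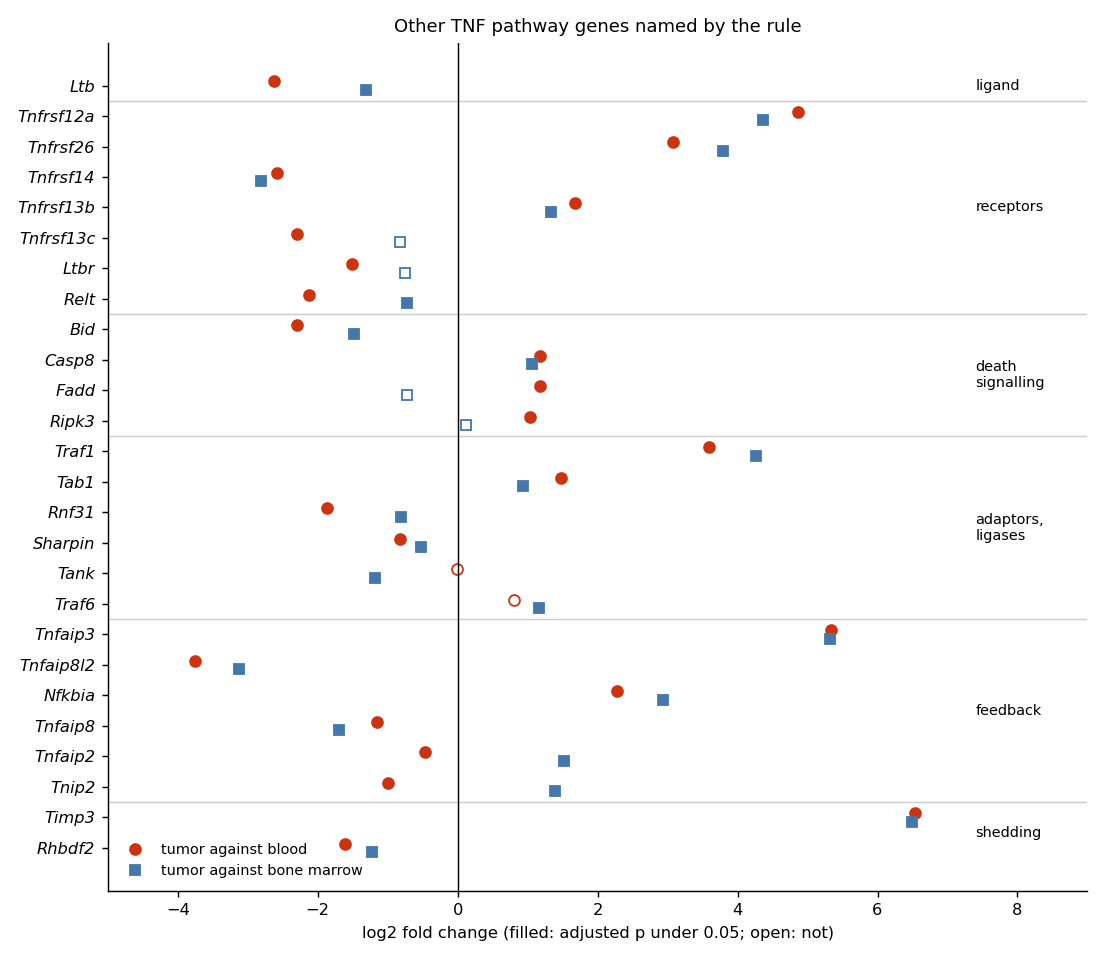
Log2 fold change (x axis) of tumor against blood (red circles) and against bone marrow (blue squares) for the TNF pathway genes named here (y axis), by list. Filled symbols passed an adjusted p under 0.05, a description for the 9 genes that met the filter through compartments where they were high; Tnfaip3 and Timp3 lie farthest to the right and Tnfaip8l2 farthest to the left.

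The genes most like Tnf across the 9 libraries were Tpi1 (Pearson r = 0.997 on log2 FPKM), Fos (0.995), Plin2 (0.993), Egr1 (0.993) and Tes (0.992). Tpi1 encodes a glycolytic enzyme, Fos and Egr1 encode immediate early transcription factors, and Plin2 encodes a lipid droplet protein. The libraries form 3 compartments, so such an r mostly restates which compartment is high, and 219 of the 7794 genes had an r over 0.95 with Tnf. Mean log2 FPKM of Egr1 was 2.28 in bone marrow, 0.97 in the blood and 8.91 in tumor, beside 3.74, 2.75 and 7.64 for Tnf. All 5 were picked by their r with Tnf and so also had its order tumor, bone marrow, blood. None of the other 7 genes tested here had this order.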

How the data were processed

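RNA was measured by the SMARTSeq v2 protocol in 9 libraries, 3 per compartment. Per the labels and methods, the authors mapped paired-end reads to GRCm38/mm10 with STAR 2.5.2b and counted them with featureCounts 1.5.0 on GENCODE M7 genes, and the submitters' notes also name edgeR 3.8.6. The authors deposited log2 FPKM values. From the values, 0.143 to 0.287 reads were added per library before the log, library sizes were scaled by factors of 0.796 to 1.22, and the length was the genomic span for 84.8% of the 46005 identifiers in GENCODE M21, from which positions and exonic lengths were taken. Whole reads were recovered within 0.01 for 100% of 46517 genes. PCR duplicates cannot be seen, so read counts give counting error only.

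The deposited log2 values were tested with limma 3.58.1 (lmFit, eBayes with trend) in R 4.3.3, keeping genes that were over 0 in 3 libraries or more, with a coefficient for each compartment and no covariate, and the fit was tested on simulated data. A fold change is on the log2 scale with the added constant, which understates changes of genes with few reads. Replicates were experiments of their own. Their correlations within a compartment were 0.875 to 0.933. The alternatives were other filters, pseudocounts of 1 and 0.1, plain library totals, median centring, limma-voom, the replicate block, only the 2 compartments compared, and leaving out each library.

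The genes and lists were chosen with earlier results of these data known. From each list were named up to 4 genes called the same way in both tumor contrasts, ranked by the smaller change, up to 2 called in 1 contrast or in opposite directions, and any gene tested with a mean log2 FPKM over 5. The 5 genes most like Tnf were ranked by Pearson r. Protein sequences were not used here, and 1 gene of the death signalling list is not reported here.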

Additional observations from a re-analysis of the deposited data

How the results depend on the processing

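Under 19 alternatives, the genes called numbered 7 to 9 in tumor against blood (8 as reported), 5 to 8 in tumor against bone marrow (6) and 7 to 8 in blood against bone marrow (8). Of 24 gene and contrast pairs, 19 kept their direction and their side of the threshold in every alternative that could be fitted, and over all 453 such fits 436 did so, 12 lost the call, 2 gained it and 3 turned in direction. The 3 that turned did so with plain library totals, which raise tumor values, namely Tnfrsf1b in tumor against blood (0.0944), and Fas (0.0363) and Tnfsf14 (0.25) in tumor against bone marrow. The call of Tnfrsf1b was also lost with no filter (adjusted p = 0.0604) and with only the 2 compartments compared (0.0611), for which the cause was not tested. With a pseudocount of 1, which shrinks low genes, 6 log2 fold changes moved by over 1.5 times in fold and kept their call, Tnfsf13b in tumor against blood and bone marrow (-0.88 and -1.37), Tnfsf9 and Tnfrsf23 in tumor against bone marrow (3.47 and 2.95) and both in blood against bone marrow (2.31 and 1.12). Under the stricter filter, log2 FPKM over 2, Tnfsf13b was no longer tested.

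The number of all genes called depended on the genes tested. In tumor against blood it was 4880 of 7794 as reported, 8963 of 23861 with no filter, 9314 of 17714 with the filter on reads, 9759 with limma-voom and 2562 of 3514 with the stricter filter. Against bone marrow it was 4311, 7351, 7734, 8914 and 2378. In blood against bone marrow it was 3446, and 5361 with limma-voom and 1924 with the stricter filter.

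Deviations of same-numbered libraries from their compartment means correlated at -0.071 to 0.108, and other pairs at -0.098 to 0.106, so no pairing by number showed in the values. This does not tell whether same-numbered libraries share mice. With the replicate block, 8, 6 and 8 genes were called in the 3 contrasts, with no change of call. Depth limits Tnfsf10 and Tnfrsf10b, which had at most 23 and 45 reads in a library.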
